A study of Homo sapiens with 6 samples.

Results

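The genes described here are 37 that encode RNA polymerase I, RNA polymerase III and the factors that start or end their transcription. They were chosen by gene symbol: 6 subunits of polymerase I, 2 subunits common to polymerases I and III, and 10 subunits of polymerase III. The others are 7 factors of polymerase I initiation and termination, 3 members of TFIIIB, 7 members of TFIIIA and TFIIIC, and MAF1 and SSB. Each was read by its brightest probe set. All 37 were among the 18244 genes with a probe set assigned to 1 symbol, and all 37 were among the 12198 genes bright enough to be tested.

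RNA was measured on 6 Affymetrix 3' arrays of P493-6, a human B-cell lymphoma line whose c-Myc transgene is repressed by tetracycline. Low-Myc cells had c-Myc released for 0 hours, mid-Myc cells for 1 hour and high-Myc cells for 24 hours, with 2 arrays in each group that the design text describes as biological duplicates. All 3 groups were the same line grown in RPMI medium with fetal bovine serum, and all received ERCC synthetic RNAs in proportion to cell number before 100 ng of total RNA was labelled. For mid-Myc, 1 protocol field gave 0 hours and another 1 hour, and the value of 1 hour was used. The groups are cultures of 1 cell line. The sources used here do not say whether the mid-Myc arrays were made together with the others, and if not, a batch difference and a change at 1 hour cannot be told apart.

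RNA polymerase I transcribes the large ribosomal RNA precursor, and RNA polymerase III transcribes 5S ribosomal RNA, transfer RNAs and other short RNAs. Polymerase I is brought to ribosomal DNA by UBTF, by the TBP-containing complex SL1 and by RRN3, while polymerase III is placed by TFIIIB, which TFIIIC recruits to most of its genes. c-Myc is known to promote the activity of both enzymes in growing cells, and it binds DNA as a partner of MAX at E-box sequences.

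Intensities were compared on 2 scales. The equal-median scale gave every array the same median human probe set, and it shows what a gene did relative to other genes in the same mass of RNA. The per-cell scale aligned the arrays on the ERCC RNAs, and it shows what a gene did per cell. A gene was called higher or lower if limma's adjusted p, over all genes tested, was under 0.05. A change of 1 on the log2 scale is a doubling, and the errors given with changes are standard errors from the limma fit. The 3 comparisons share their arrays and are not independent of one another.

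The duplicates correlated at r = 0.996 over the tested genes in each group. The B-cell marker MS4A1 read 11940 and 11820 in low-Myc, 13110 and 13130 in mid-Myc, and 9885 and 9719 in high-Myc on the equal-median scale. Of the 6 B-cell markers tested, 5 were lower and 1 was higher in high-Myc cells than in low-Myc cells on that scale, while per cell 4 were higher, 1 was lower and 1 was not called. Of 6 T and NK cell markers, 4 passed the filter, at 26.4 to 73.2, and 1 of them, CD3G, was lower in high-Myc. The T-cell marker CD3D, at 16.2 to 23.9, and the monocyte markers CD14, at 15.2 to 20.2, and FCGR3A, at 5.25 to 11.2, lay under the brightness filter of 33.8 on every array. The monocyte markers LYZ, at 392 to 1315, and CD68, at 81.7 to 226, did not. On the equal-median scale LYZ and CD68 differed by -1.49 and -1.03 log2 in high-Myc against low-Myc, both called lower. Per cell LYZ was lower, at -0.41 log2, and CD68, at 0.01, was not called. The monocyte marker CSF1R, at 33.9 to 51.4 on the equal-median scale, was not called on either scale. The part of these marker shifts in the results below was not tested. In bulk RNA, fewer cells of a kind and less RNA per cell cannot be told apart.

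MYC itself read 9844 and 9567 in low-Myc, 10290 and 10440 in mid-Myc, and 12150 and 12430 in high-Myc on the equal-median scale, so the groups did not overlap and followed the order of their labels. High-Myc exceeded low-Myc by 0.34 ± 0.03 log2 (adjusted p = 2.68e-07, limma) and mid-Myc exceeded low-Myc by 0.09 ± 0.03 log2 (adjusted p = 0.0339, limma). The second difference changed sign under 4 other scalings, at -0.15 with quantile normalization. Whether the probe set reads the transgene was not tested.

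The promoter windows of 5 polymerase subunit genes are shown as examples. They do not cover every response, as no promoter factor and no gene that was not called is among them. Each runs from 250 bases before to 50 bases after the transcription start in RefSeq, GRCh38.p14, and is written 5′ to 3′ on the strand of the gene. POLR1G (chr19:45406394-45406693, plus strand), POLR3E (chr16:22297159-22297458, plus strand) and POLR3A (chr10:78029466-78029765, minus strand) were higher in high-Myc cells than in low-Myc cells and hold the canonical E-box CACGTG, which is in capitals. POLR1C (chr6:43516839-43517138, plus strand) was higher without that motif in its window, as were POLR1A, POLR1B, POLR3B and POLR3K, which are not shown. POLR3GL (chr1:145964440-145964739, plus strand), lower on the equal-median scale, also has none.
POLR1G: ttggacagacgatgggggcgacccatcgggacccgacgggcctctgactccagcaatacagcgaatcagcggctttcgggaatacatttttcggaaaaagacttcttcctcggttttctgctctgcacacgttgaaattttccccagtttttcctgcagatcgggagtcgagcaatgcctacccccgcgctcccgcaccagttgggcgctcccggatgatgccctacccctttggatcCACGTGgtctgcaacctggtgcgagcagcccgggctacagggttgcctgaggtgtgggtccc
POLR3E: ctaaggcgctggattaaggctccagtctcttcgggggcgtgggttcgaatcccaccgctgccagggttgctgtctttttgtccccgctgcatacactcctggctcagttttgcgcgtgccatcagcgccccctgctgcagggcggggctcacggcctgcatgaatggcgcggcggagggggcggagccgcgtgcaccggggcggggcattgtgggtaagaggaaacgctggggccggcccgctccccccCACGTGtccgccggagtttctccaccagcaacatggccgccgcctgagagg
POLR3A: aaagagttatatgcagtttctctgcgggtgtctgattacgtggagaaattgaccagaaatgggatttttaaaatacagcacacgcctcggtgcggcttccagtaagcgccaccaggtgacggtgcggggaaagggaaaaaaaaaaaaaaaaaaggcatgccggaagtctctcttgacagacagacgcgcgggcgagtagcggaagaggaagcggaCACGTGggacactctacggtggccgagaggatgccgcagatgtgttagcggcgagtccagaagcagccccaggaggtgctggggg
POLR1C: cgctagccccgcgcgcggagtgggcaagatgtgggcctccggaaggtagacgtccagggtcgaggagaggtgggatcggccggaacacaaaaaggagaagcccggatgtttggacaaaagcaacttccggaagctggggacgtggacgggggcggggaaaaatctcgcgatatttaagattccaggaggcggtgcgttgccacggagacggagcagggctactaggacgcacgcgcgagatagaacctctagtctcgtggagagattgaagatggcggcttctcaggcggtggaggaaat
POLR3GL: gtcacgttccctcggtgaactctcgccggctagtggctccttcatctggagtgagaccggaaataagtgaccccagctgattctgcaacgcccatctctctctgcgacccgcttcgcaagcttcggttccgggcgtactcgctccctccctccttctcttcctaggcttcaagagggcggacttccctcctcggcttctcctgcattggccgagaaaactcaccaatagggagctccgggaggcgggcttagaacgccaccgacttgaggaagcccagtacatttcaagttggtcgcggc

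The motif CACGTG reads the same on both strands. It was present in any window of 8 of the 31 members that have one (25.8%), against 12.5% of the 9953 tested genes with a window. Of all 27305 genes with a window 8.77% had it, and of all 35116 windows of 300 bases, counted singly, 7.26% did. The E-box began 12 bases before the start of POLR1G, 1 base before that of POLR3E, and 35 bases before those of POLR3A and GTF3C4. In SSB, GTF3C2, GTF3C6 and POLR3C it lay farther upstream, with its first base at -97, -103, -142 and -196. By role, it was found in 1 of 5 polymerase I subunits, 3 of 7 polymerase III subunits and 3 of 7 members of TFIIIA and TFIIIC, and in 0 of 7 polymerase I initiation and termination factors. These matches describe the letters of the windows and are not evidence of binding.

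At 24 hours most genes of the machinery had risen relative to other transcripts, and the median change was larger among polymerase subunits than among promoter factors. Between high-Myc and low-Myc on the equal-median scale, 29 of 37 members were higher, 1 was lower and 7 were not called, where 37.7% of all tested genes were higher and 26% were lower. Under 3 other scalings 3 or 4 members were lower, with TTF1, MAF1 and CRCP the additions. The median member stood 0.75 log2 higher in high-Myc, and the median tested gene stood 0.05 log2 higher. The medians by role were 1.87 for polymerase I subunits, 1.62 for the shared subunits, 1.04 for polymerase III subunits, 0.70 for TFIIIA and TFIIIC, 0.39 for polymerase I initiation and termination and 0.28 for TFIIIB. At least a 2-fold rise was called in 13 of 37 members, where 11.1% of all tested genes were called with one. These counts include POLR3G, which passed the filter only through its high-Myc arrays and so had to differ; without it, 28 of 36 members were higher, 12 of 36 rose 2-fold and the polymerase III median was 0.94. Centring the arrays on the tested genes in place of all human probe sets lowered the median of all tested genes to -0.15 and that of the members to 0.54.

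**Figure D1:**
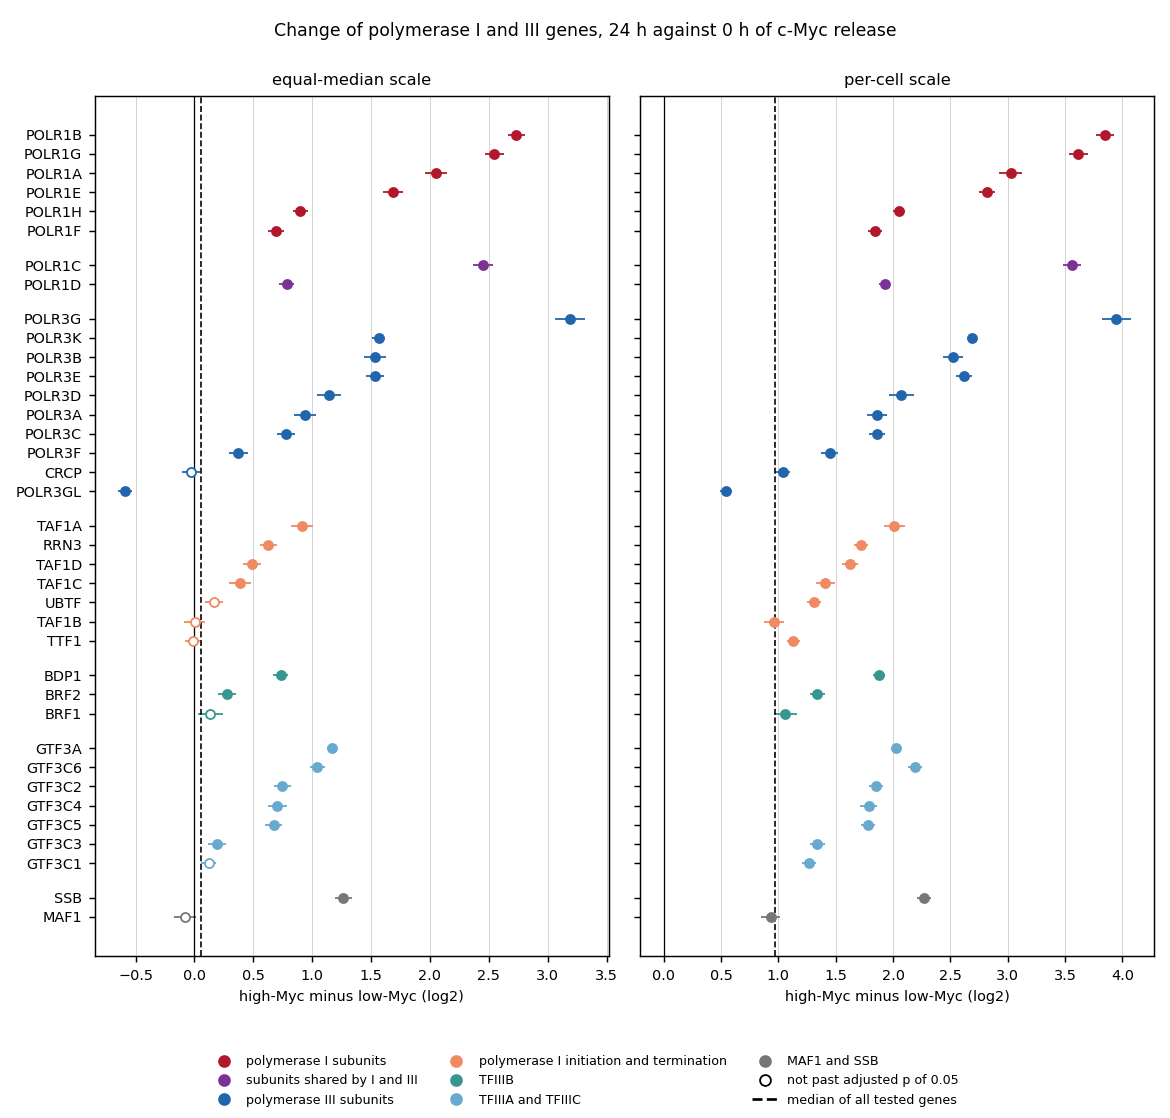
Change of each of the 37 genes in high-Myc against low-Myc, in log2, on the equal-median scale (left) and the per-cell scale (right). Points are limma estimates with their standard errors, open points did not pass an adjusted p of 0.05, and the dashed line is the median of all tested genes (0.05 and 0.97). On the left only POLR3GL was called lower, and on the right all 37 were called higher. POLR3G is plotted with the others, but it passed the filter only through its high-Myc arrays and so had to differ.

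All 6 subunits specific to polymerase I were higher in high-Myc cells than in low-Myc cells. On the equal-median scale 37.7% of all tested genes were higher in that comparison. POLR1B, the second largest subunit and part of the catalytic centre, read 132 and 141 in low-Myc, 138 and 127 in mid-Myc, and 917 and 894 in high-Myc on the equal-median scale. Its high-Myc arrays stood far above the other 4, while mid-Myc and low-Myc overlapped. The change was 2.74 ± 0.07 log2, or 6.66-fold (adjusted p = 2.26e-12, limma). POLR1A, the largest subunit, completes the catalytic centre and read 65.6 and 74.7 in low-Myc, 63.5 and 66.0 in mid-Myc, and 281 and 302 in high-Myc. High-Myc stood alone in POLR1A too, 2.05 ± 0.09 log2 above low-Myc (adjusted p = 2.31e-10, limma).

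POLR1G and POLR1E form a dimer that aids initiation and elongation. POLR1G read 99.2 and 106 in low-Myc, 86.7 and 85.2 in mid-Myc, and 568 and 636 in high-Myc on the equal-median scale. Its 3 groups did not overlap and mid-Myc was the lowest. It was 2.55 ± 0.08 log2 higher in high-Myc cells than in low-Myc cells, and its partner POLR1E was 1.69 ± 0.08 log2 higher.

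By their brightest probe sets, the other 2 polymerase I subunits moved less. POLR1H, which is needed for cleavage of stalled transcripts, was 0.90 ± 0.06 log2 higher in high-Myc cells than in low-Myc cells. POLR1F, the stalk subunit that contacts RRN3, read 323 and 323 in low-Myc, 403 and 416 in mid-Myc, and 497 and 550 in high-Myc on the equal-median scale. Its groups rose in steps without overlap, and the change in high-Myc against low-Myc was 0.70 ± 0.07 log2 (adjusted p = 5.58e-07, limma). The other 2 probe sets of POLR1F stood 1.13 and 1.29 log2 higher, above the single probe set of POLR1H, so these 2 subunits have no settled order. Per cell, the changes of the brightest probe sets of the 6 ran from 1.84 in POLR1F to 3.85 in POLR1B.

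POLR1C and POLR1D form the platform on which polymerases I and III are assembled. POLR1C read 124 and 103 in low-Myc, 207 and 205 in mid-Myc, and 596 and 642 in high-Myc on the equal-median scale. POLR1D read 448 and 406 in low-Myc, 553 and 556 in mid-Myc, and 729 and 742 in high-Myc on that scale. In these probe sets the groups rose stepwise and did not overlap. High-Myc exceeded low-Myc by 2.45 ± 0.09 log2 in POLR1C, or 5.46-fold (adjusted p = 2.38e-11, limma), and by 0.78 ± 0.06 log2 in POLR1D (adjusted p = 8.05e-08, limma). The other 2 POLR1D probe sets moved less, by 0.24 and 0.06 log2 in high-Myc against low-Myc and by -0.07 and 0.08 log2 in mid-Myc against low-Myc. Of the other 2 POLR1C probe sets, one was 2.48 log2 higher in high-Myc cells than in low-Myc cells and a dimmer one 0.83 log2 higher.

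**Figure D2:**
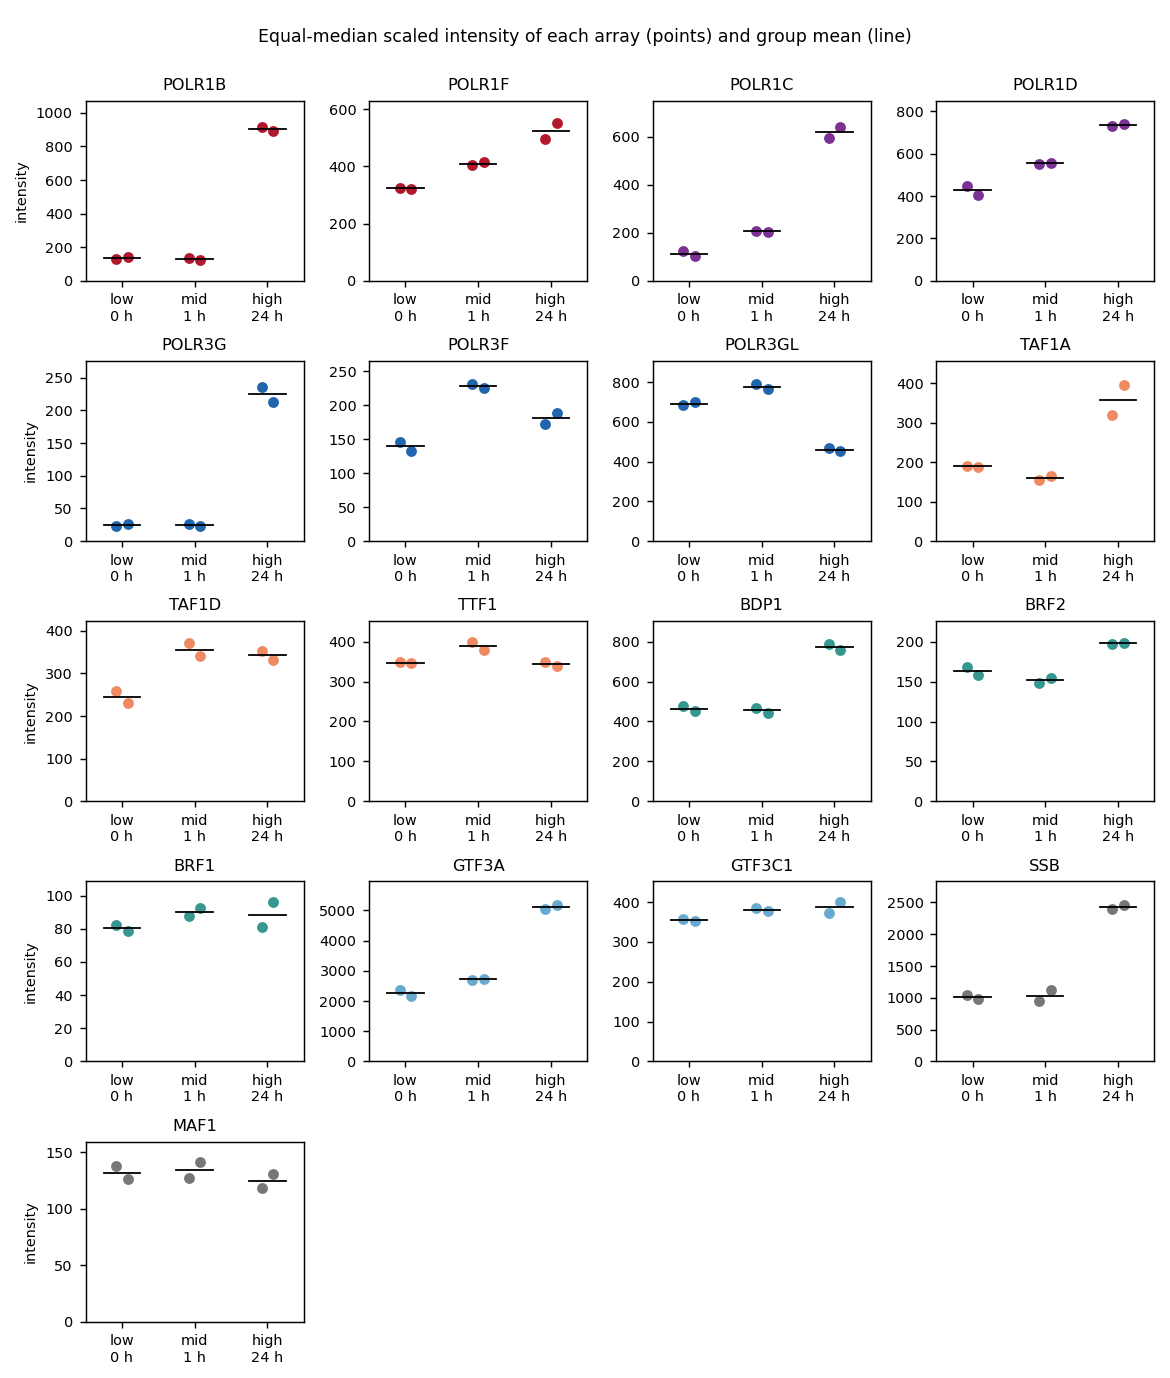
Equal-median scaled intensity of 17 of the genes on each of the 6 arrays, in low-Myc (0 h), mid-Myc (1 h) and high-Myc (24 h), each panel on a linear axis from 0. Points are arrays and lines are group means of 2 arrays. POLR1B differs little between 0 and 1 hour, POLR3G stands above the filter only at 24 hours, the brightest probe sets of POLR1C and POLR1D climb in steps, and POLR3F and POLR3GL are highest at 1 hour.

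Among the 10 subunits of polymerase III, 8 were higher, 1 was lower and 1 was not called in high-Myc against low-Myc on the equal-median scale. Without POLR3G, which had to differ, 7 of 9 were higher, where 37.7% of all tested genes were higher and 26% were lower. The member called lower was POLR3GL. POLR3G and its paralogue POLR3GL take the same place in a 3-subunit initiation module, and POLR3G is known from stem cells and tumour cells while POLR3GL is broadly expressed.

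POLR3G read 23.5 and 25.6 in low-Myc, 26.7 and 23.6 in mid-Myc, and 236 and 213 in high-Myc on the equal-median scale. Only the high-Myc arrays lay above the brightness filter of 33.8, and only through them did the gene pass it. No adjusted p is therefore given for it, though counts over all members or all polymerase III subunits include its call unless stated otherwise. Set against the filter in place of the low-Myc reading, POLR3G was at least 6.63-fold higher in high-Myc cells than in low-Myc cells on that scale. A dimmer POLR3G probe set under the filter was 1.40 log2 higher in high-Myc.

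POLR3GL read 687 and 698 in low-Myc, 793 and 764 in mid-Myc, and 469 and 451 in high-Myc on the equal-median scale. Its groups did not overlap, and high-Myc was the lowest. The change was -0.59 ± 0.06 log2 (adjusted p = 5.7e-07, limma) and stayed past the threshold under every alternative run on this scale. On the per-cell scale POLR3GL was instead 0.54 ± 0.05 log2 higher in high-Myc cells than in low-Myc cells, below the median tested gene at 0.97. Within an array the scale cancels to a large part, and the ratio of POLR3G to POLR3GL, relative to its low-Myc mean, was -0.05 and 0.05 log2 in low-Myc, -0.07 and -0.19 in mid-Myc, and 3.83 and 3.74 in high-Myc. The low-Myc and mid-Myc ratios rest on POLR3G readings under the filter.

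The other polymerase III subunits lay between these paralogues. POLR3K, which acts in transcript cleavage and termination, read 440 and 419 in low-Myc, 500 and 508 in mid-Myc, and 1239 and 1302 in high-Myc, with no overlap. It was 1.56 ± 0.06 log2 higher in high-Myc cells than in low-Myc cells on the equal-median scale. POLR3B, the second largest and catalytic subunit, was 1.53 ± 0.09 log2 higher, and POLR3A, the largest, was 0.94 ± 0.09 log2 higher. Another POLR3A probe set above the filter was 0.37 log2 higher. POLR3E and POLR3D, a dimer with roles in initiation and termination, were 1.53 ± 0.08 and 1.14 ± 0.10 log2 higher. The spread in POLR3D was wider between its mid-Myc arrays, with an SD of 8.53, than between its low-Myc arrays, with an SD of 1.07.

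POLR3C and POLR3F are the partners of POLR3G in the initiation module. POLR3C was 0.78 ± 0.08 log2 higher in high-Myc cells than in low-Myc cells on the equal-median scale. POLR3F read 146 and 133 in low-Myc, 232 and 226 in mid-Myc, and 172 and 189 in high-Myc on that scale, with no overlap and its highest values at 1 hour. High-Myc exceeded low-Myc in POLR3F by 0.37 ± 0.08 log2 (adjusted p = 0.00102, limma), which lost its call at 0.17 when the arrays were centred on the tested genes. CRCP, a stalk subunit, differed by -0.03 ± 0.08 log2 and was not called, it was called lower under 2 other scalings, at -0.20 and -0.23, and it stood at 0.17 with all its probe sets averaged.

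Among the 7 factors of polymerase I initiation and termination, 4 were higher and 3 were not called in high-Myc against low-Myc on the equal-median scale. In that comparison 37.7% of all tested genes were higher and 26% were lower. TAF1A, a subunit of SL1, read 191 and 187 in low-Myc, 155 and 166 in mid-Myc, and 320 and 395 in high-Myc on that scale. The high-Myc arrays were above all others and differed from each other more than the duplicates of the other groups. The change was 0.91 ± 0.09 log2 (adjusted p = 8.8e-07, limma). RRN3, which links polymerase I to the promoter complex, read 177 and 161 in low-Myc, 204 and 206 in mid-Myc, and 257 and 265 in high-Myc. Its groups did not overlap, and it was 0.63 ± 0.07 log2 higher in high-Myc cells than in low-Myc cells. The SL1 subunits TAF1D and TAF1C were 0.49 ± 0.08 and 0.39 ± 0.09 log2 higher. The call of TAF1C was lost at 0.18 with the arrays centred on the tested genes and at 0.15 with its probe sets averaged. RRN3 has pseudogene copies, and whether its probe set also reads them was not tested.

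The remaining 3 of these factors were not called in high-Myc against low-Myc on the equal-median scale. By its brightest probe set UBTF, the architectural factor of active ribosomal DNA, read 307 and 274 in low-Myc and 347 and 376 in mid-Myc. In high-Myc UBTF read 316 and 336, so this probe set was highest at 1 hour. It differed between high-Myc and low-Myc by 0.17 ± 0.08 log2 (adjusted p = 0.0682, limma), a difference that was called, at 0.25, without the first low-Myc array. The SL1 subunit TAF1B differed by 0.00 ± 0.09 log2. TTF1, the termination factor, read 349 and 346 in low-Myc, 400 and 380 in mid-Myc, and 350 and 339 in high-Myc on that scale, so high-Myc and low-Myc overlapped. It differed by -0.01 ± 0.06 log2 and was called lower under 3 other scalings, at -0.15 to -0.22.

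TFIIIB contains BDP1 and either BRF1, used at transfer RNA and 5S genes, or BRF2, used at U6-type genes. BDP1 read 477 and 452 in low-Myc, 470 and 444 in mid-Myc, and 788 and 756 in high-Myc on the equal-median scale, with only high-Myc standing apart. It was 0.73 ± 0.06 log2 higher in high-Myc cells than in low-Myc cells (adjusted p = 1.37e-07, limma).

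The 2 BRF genes moved little. BRF1 read 82.2 and 78.4 in low-Myc, 87.7 and 92.3 in mid-Myc, and 81.0 and 96.0 in high-Myc on the equal-median scale. Its groups overlapped, and the difference of 0.14 ± 0.10 log2 between high-Myc and low-Myc was not called (adjusted p = 0.282, limma). BRF2 read 169 and 159 in low-Myc, 148 and 155 in mid-Myc, and 198 and 199 in high-Myc on that scale. It did not overlap between high-Myc and low-Myc and was 0.28 ± 0.08 log2 higher (adjusted p = 0.00543, limma), a call that was lost under 3 other scalings at 0.07 to 0.14 and at 0.15 with its probe sets averaged. Relative to its low-Myc mean, the ratio of BRF2 to BRF1 was 0.01 and -0.01 log2 in low-Myc and -0.27 and -0.28 in mid-Myc. In high-Myc it was 0.26 and 0.02, so high-Myc and low-Myc were separated by little and mid-Myc was the lowest. This ratio rests on the brightest probe set of each gene. In mid-Myc against low-Myc the BRF1 probe set used differed by 0.164 log2, and its others above the filter by -0.201 to 0.255, with both signs.

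TFIIIA, encoded by GTF3A, is the zinc finger protein that binds 5S genes and 5S RNA. GTF3A read 2370 and 2177 in low-Myc, 2709 and 2730 in mid-Myc, and 5047 and 5168 in high-Myc on the equal-median scale. The groups rose in order with no overlap, and high-Myc exceeded low-Myc by 1.17 ± 0.05 log2 (adjusted p = 6.47e-11, limma).

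TFIIIC binds the internal promoters of transfer RNA genes with its 6 subunits. On the equal-median scale 5 of these were higher in high-Myc cells than in low-Myc cells, where 37.7% of all tested genes were higher. GTF3C6, GTF3C2, GTF3C4 and GTF3C5 were 1.04 ± 0.06, 0.75 ± 0.07, 0.70 ± 0.08 and 0.67 ± 0.07 log2 higher. GTF3C3 was 0.19 ± 0.07 log2 higher with an adjusted p of 0.0382 (limma), and it was not called under 4 other scalings, turning negative at -0.01 in 2 of them. Its call was also lost without the second low-Myc array, the second high-Myc array or either mid-Myc array, at 0.10 to 0.19. GTF3C1, the largest subunit, read 358 and 354 in low-Myc, 385 and 377 in mid-Myc, and 372 and 401 in high-Myc on that scale. Its high-Myc arrays were above its low-Myc arrays, yet the difference of 0.12 ± 0.07 log2 was not called (adjusted p = 0.126, limma).

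MAF1 represses polymerase III when nutrients are short, and SSB, the La protein, binds the uridine tails of new polymerase III transcripts. SSB read 1038 and 980 in low-Myc, 950 and 1122 in mid-Myc, and 2400 and 2451 in high-Myc on the equal-median scale, and was 1.27 ± 0.07 log2 higher in high-Myc cells than in low-Myc cells (adjusted p = 1.32e-09, limma). MAF1 read 137 and 126 in low-Myc, 127 and 141 in mid-Myc, and 119 and 131 in high-Myc on that scale. All 3 MAF1 groups overlapped, and the difference between high-Myc and low-Myc was -0.08 ± 0.09 log2 (adjusted p = 0.472, limma). MAF1 was called lower, at -0.22 to -0.28, under 3 other scalings.

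At 1 hour the changes were smaller, and most members were not called. Between mid-Myc and low-Myc on the equal-median scale, 13 members were higher, 2 were lower and 22 were not called, where 25.7% of all tested genes were higher and 3.39% were lower. The median member and the median tested gene each stood 0.09 log2 higher in mid-Myc. No member had risen 2-fold. The count of higher members fell to 6 or 7 under 4 other scalings, and to 7 without the second low-Myc or the second mid-Myc array. Under those 4 scalings the median member lay between -0.06 and 0.005 log2, and the median tested gene between -0.06 and -0.01.

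The 3 largest changes at 1 hour were in POLR1C, POLR3F and TAF1D, and each passed the threshold under every alternative run on the equal-median scale. POLR1C was 0.87 ± 0.09 log2 higher in mid-Myc than in low-Myc (adjusted p = 1.57e-05, limma), and its other 2 probe sets were 0.79 and 0.94 log2 higher. POLR3F was 0.71 ± 0.08 log2 higher (adjusted p = 3.82e-05, limma), and its other probe set was 0.59 log2 higher. TAF1D read 258 and 230 in low-Myc, 370 and 341 in mid-Myc, and 354 and 332 in high-Myc on the equal-median scale, and was 0.54 ± 0.08 log2 higher in mid-Myc than in low-Myc (adjusted p = 0.000218, limma). Its mid-Myc and high-Myc arrays overlapped, and both stood above low-Myc.

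The catalytic subunits that were much higher at 24 hours showed little at 1 hour. In mid-Myc against low-Myc on the equal-median scale, POLR1A differed by -0.11 ± 0.09, POLR1B by -0.04 ± 0.07 and POLR3B by -0.08 ± 0.09 log2, and none of these 3 was called. By role, 1 of 6 polymerase I subunits was higher and 1 was lower. Both shared subunits and 4 of 10 polymerase III subunits were higher. Among all tested genes, 25.7% were higher and 3.39% were lower in this comparison. Of the promoter factors, 3 of 7 for polymerase I and 3 of 7 in TFIIIA and TFIIIC were higher and TAF1B was lower. The 3 TFIIIB genes among the members were not called. GTF3C5, at 0.42 ± 0.07, and POLR1D, at 0.38 ± 0.06 log2, were the next largest rises, and neither was called when all probe sets of a gene were averaged, at 0.20 and 0.13.

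The 2 members called lower at 1 hour, named after their values were seen, were POLR1G and TAF1B. TAF1B read 114 and 112 in low-Myc, 88.0 and 85.7 in mid-Myc, and 118 and 109 in high-Myc on the equal-median scale, so mid-Myc was the lowest and the other groups overlapped. It was -0.38 ± 0.09 log2 in mid-Myc against low-Myc (adjusted p = 0.0052, limma), while its other 2 probe sets differed by 0.02 and -0.01 log2. POLR1G differed by -0.26 ± 0.08 log2 (adjusted p = 0.029, limma), and its other probe sets by 0.01 and -0.05. The POLR1G call was lost without the second low-Myc array or either mid-Myc array, at -0.21 to -0.27. With all probe sets of a gene averaged, neither POLR1G, at -0.10, nor TAF1B, at -0.12, was called lower.

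**Figure D3:**
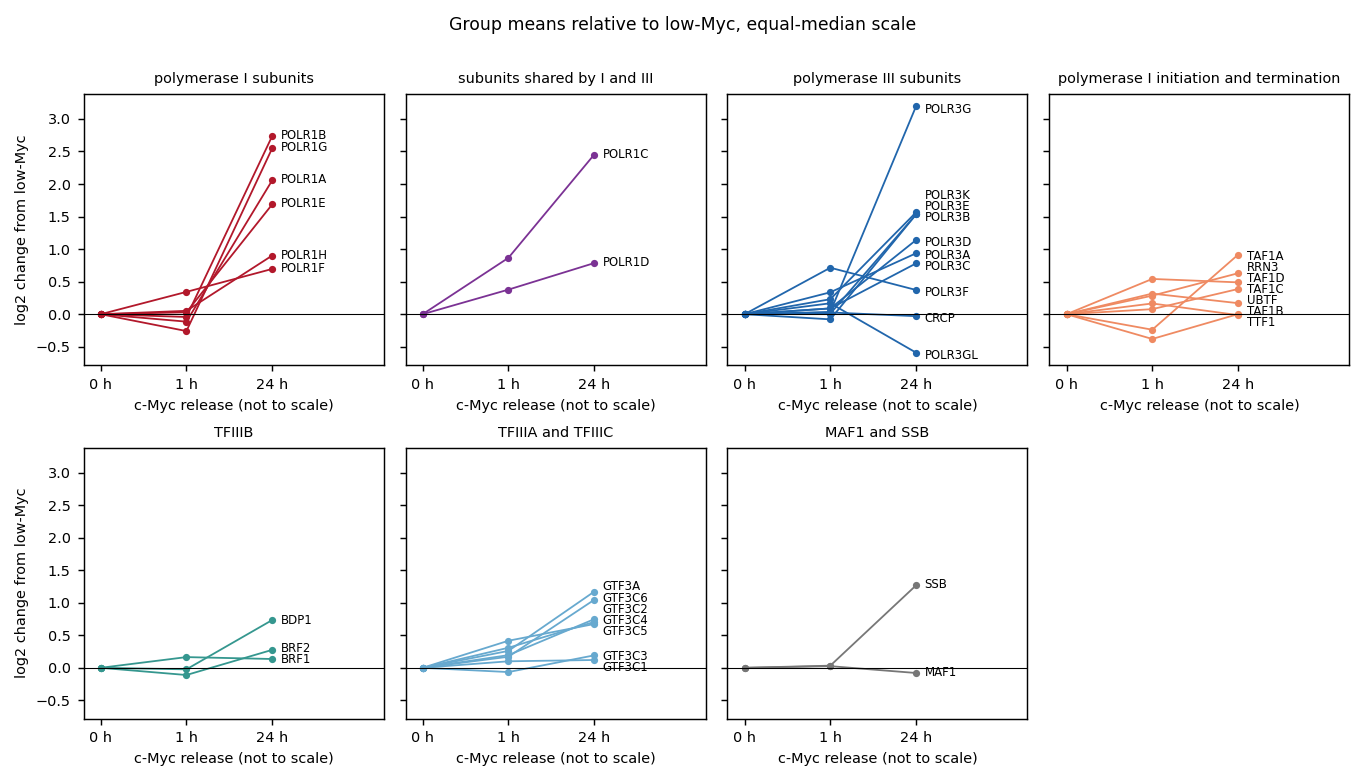
Group means of the 37 genes relative to low-Myc, in log2 on the equal-median scale, at 0, 1 and 24 hours of c-Myc release, with 1 panel per role. Hours are placed evenly and not to scale. At 1 hour, among the polymerase I subunits, POLR1F stands above 0 (0.34) and POLR1G below it (-0.26), and POLR1C, POLR3F and TAF1D show the largest rises there.

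High-Myc was also compared with mid-Myc. On the equal-median scale 28 members were higher, 3 were lower and 6 were not called, where 33.3% of all tested genes were higher and 30.9% were lower. POLR3G, which passed the filter only through high-Myc, is among the 28. The median member stood 0.55 log2 higher in high-Myc than in mid-Myc, and the median tested gene 0.02 log2 higher. All 6 polymerase I subunits were higher, by 0.35 in POLR1F to 2.81 in POLR1G. Of the promoter factors, 4 of 7 for polymerase I, 2 of 3 in TFIIIB and 6 of 7 in TFIIIA and TFIIIC were higher.

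The 3 members lower in high-Myc than in mid-Myc were POLR3GL, POLR3F and TTF1. POLR3GL differed by -0.76 ± 0.06 log2 (adjusted p = 4.08e-08, limma) and POLR3F by -0.34 ± 0.08 log2 (adjusted p = 0.00193, limma) on the equal-median scale. The other POLR3F probe set differed by -0.32 log2. TTF1 differed by -0.18 ± 0.06 log2 (adjusted p = 0.0253, limma), a call that was lost without the first or the second high-Myc array or the first mid-Myc array, at -0.14 to -0.20. Per cell, POLR3GL, POLR3F and TTF1 were 0.15, 0.50 and 0.73 log2 higher in high-Myc than in mid-Myc. The POLR3GL call per cell was lost without the first high-Myc or the second mid-Myc array, at 0.12 and 0.10.

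Per cell, every member was higher at 24 hours, as were most genes. In high-Myc against low-Myc all 37 members were higher by limma, where 90.8% of all tested genes were higher and 2.53% were lower, and the median change was 1.86 log2 for the members and 0.97 for all tested genes. In high-Myc against mid-Myc all 37 were higher, where 81.7% of all tested genes were higher and 6.57% were lower, with medians of 1.32 and 0.71. In mid-Myc against low-Myc 30 members were higher and 7 were not called, where 62.4% of all tested genes were higher and 0.697% were lower, with medians of 0.32 and 0.30. Since most genes were called higher per cell, these counts say little about the members. Both comparisons with high-Myc also include POLR3G, which passed the filter only through that group.

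By size, 34 of the 37 members rose at least 2-fold per cell in high-Myc against low-Myc, where 48.4% of all tested genes did. POLR3G is among the 34 and also enters the polymerase III median below. POLR1B read 94.0 and 105 in low-Myc, 120 and 108 in mid-Myc, and 1455 and 1412 in high-Myc on the per-cell scale, a 14.4-fold rise at 24 hours. The smallest change was that of POLR3GL, at 0.54 ± 0.05 log2. By role, the per-cell medians in high-Myc against low-Myc were 2.92 for polymerase I subunits, 2.74 for the shared subunits, 1.97 for polymerase III subunits, 1.79 for TFIIIA and TFIIIC, 1.41 for polymerase I initiation and termination and 1.34 for TFIIIB. The 3 members under 2-fold were POLR3GL, TAF1B at 0.96 and MAF1 at 0.93 log2, named after their values were seen.

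**Figure D4:**
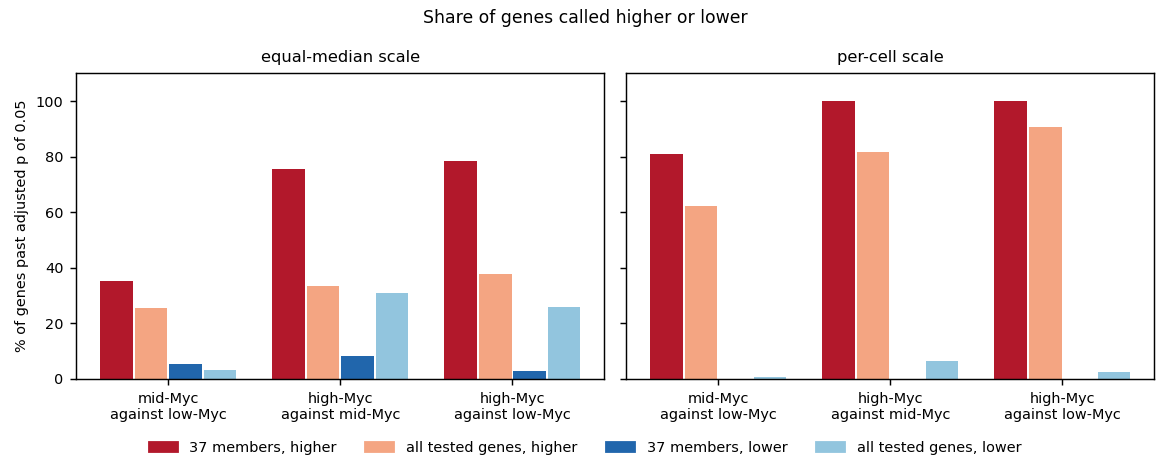
Share of the 37 genes and of all 12198 tested genes called higher (red) or lower (blue) in each comparison, in percent, on the equal-median scale (left) and the per-cell scale (right). Dark bars are the 37 genes, POLR3G included, and light bars all tested genes. On the left the dark red bars stand above the light ones most clearly in both comparisons with high-Myc, and on the right both are high.

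Genes that work beside these polymerases were counted from lists of known partners, on the equal-median scale in high-Myc against low-Myc. In that comparison 37.7% of all tested genes were higher and 26% were lower. The subunits common to all 3 nuclear polymerases together with TBP were all higher, 6 of 6 with a median of 1.08 log2, led by POLR2F at 1.87 ± 0.06 and POLR2H at 1.86 ± 0.07. Of 7 subunits specific to polymerase II, which makes messenger RNA, 6 were higher with a median of 0.63 log2, led by POLR2I at 1.37 ± 0.06 and POLR2D at 0.91 ± 0.12. Of the 6 tested members of SNAPc, which serves U6-type promoters, and its partners, 2 were higher and 1 was lower, with SNAPC1 at 1.69 ± 0.12, SNAPC4 at 0.97 ± 0.06 and SNAPC3 at -0.65 ± 0.07 log2. Of 10 regulators of polymerase I and ribosomal DNA chromatin, 5 were higher and 2 were lower. The share higher was 33.3% for SNAPc and its partners, under that of all tested genes, and 50% for these regulators. The nucleolar proteins NOLC1 and DDX21 rose by 2.06 ± 0.04 and 1.93 ± 0.04 log2, and BAZ2A, a subunit of the silencing complex of ribosomal DNA, differed by -0.73 ± 0.07 log2. Per cell all members tested of these 4 lists were called higher (6, 7, 6 and 10), where 90.8% of all tested genes were, so the directions of SNAPC3, at 0.49 log2, and BAZ2A, at 0.35, depend on the scale.

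Different probe sets of a gene mostly moved alike at 24 hours. Above the filter, 25 members had 60 further probe sets, of which 47 had the sign of the one used in high-Myc against low-Myc on the equal-median scale. Per cell 60 had it, but there 90.8% of all tested genes were called higher, so that agreement says little. In 6 of the 25, namely GTF3C3, POLR1B, POLR1C, POLR1D, POLR1F and POLR1G, a further probe set differed in its change by over 1.5 times from the one used. The members whose further probe sets disagreed in sign on the equal-median scale were BRF1, CRCP, GTF3C3 and TTF1, none of which changed by more than 0.19 log2. At 1 hour 46 of 60 had the same sign, and POLR3A, whose brightest probe set was 0.34 log2 higher in mid-Myc than in low-Myc, had another at -0.13. The mean intensity of 15 members lay under the second brightest of 23 background probe sets, at 194. The median background probe set was far dimmer, at 11.3 to 13.0 on the arrays as deposited.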

How the data were processed

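The authors deposited 1 table of linear probe set intensities, and the submitters' processing notes name MAS5 as the summary method. The sources used here give neither its version nor its scaling target. RNA was extracted with Trizol per the labels' protocols. The table holds no detection calls, and the number of arrays limits the precision.

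The deposited intensities were taken to log2 and set on 2 scales. For the equal-median scale, the median of the human probe sets was subtracted from each array. For the per-cell scale, the curve subtracted was a robust loess fit of the ERCC probe sets (span 0.7, degree 1). Where a gene had several probe sets, the brightest by mean log2 value over the 6 arrays stood for it. Genes were tested if that mean exceeded the 40th percentile of human probe sets (33.8 intensity). All 6 arrays entered a single limma fit (limma 3.58.1 in R 4.3.3) with a variance trend, tested two-sided. Adjustment was by Benjamini-Hochberg over 12198 genes, with a threshold of 0.05. The degrees of freedom, borrowed in part across genes, were 12.9 on the equal-median scale and 9.22 per cell. With 2 arrays in each group, exact permutation could reach no p under 0.333. No 2 arrays held identical values.

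The steps were tested on simulated data. Values were given for every array for the members with the largest and smallest change of each role, the paralogue pairs and the 3 largest changes at 1 hour, with POLR1A, POLR1G, POLR3K, RRN3, TAF1B and UBTF added after their values were seen. The members and the gene lists were chosen with earlier results of these data known. Deviations of arrays with the same replicate number correlated between -0.00337 and 0.00221 across groups. No shared deviation was seen, but this cannot show whether arrays of the same number were made together. Alternatives were run for the scaling, the low-intensity filter, averaging of probe sets, a pseudocount (16), a fit without the variance trend, a replicate block, fits of only the groups compared, and leaving out each array. Promoter windows came from a RefSeq table (GRCh38.p14), in which 31 of the 37 members were found by symbol.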

Additional observations from a re-analysis of the deposited data

Results flagged for a closer look

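The array holds control probe sets that the files do not annotate, and they are taken here for 18S and 28S ribosomal RNA from the names the array maker customarily gives such probes. None of the comparisons above used them. They read higher in both high-Myc arrays than in both low-Myc arrays for 5 of 6 probe sets on the equal-median scale. The share of all genes separated in this way was not counted. High-Myc exceeded low-Myc by 0.13, 0.71 and 0.48 log2 at the 3', 5' and middle probe sets of 18S ribosomal RNA, and by 1.54 and 0.63 log2 at the 5' and middle probe sets of 28S ribosomal RNA. The 3' probe set of 18S was highest in mid-Myc, at 1979 and 2030, against 1606 and 1615 in high-Myc. Between high-Myc and low-Myc it differed by -0.007 log2 as deposited. The 5' probe set of 28S read 1928 and 1901 in low-Myc, 2387 and 2501 in mid-Myc, and 5513 and 5639 in high-Myc. The 3' probe set of 28S was near background. These RNAs are products of polymerase I, the labelling was made for messenger RNA tails, and how far these readings follow the amount of ribosomal RNA was not tested. Other control probe sets, taken from their names for GAPDH, differed by 0.50, 0.50 and 0.61 log2 in high-Myc against low-Myc on the equal-median scale. Those taken for actin differed by -0.24, -0.58 and -0.18 log2. With 2 arrays in each group, no array could be tested for standing apart from its group.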

How the results depend on the processing

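The number of members higher in mid-Myc than in low-Myc on the equal-median scale, 13, was 6 as deposited, 7 centred on the tested genes, 6 with cyclic loess, 7 with quantile normalization, and 7 to 13 with an array left out. The number lower, 2, was 5 as deposited, 4 centred on the tested genes, 4 with cyclic loess, 5 with quantile normalization, 1 without the variance trend, 0 of 36 members tested with all probe sets averaged (limma), and 1 to 3 with an array left out. The number lower in high-Myc cells than in low-Myc cells, 1, was 3 as deposited, 4 centred on the tested genes and 4 with quantile normalization. The cause was not tested. In the other counts of members, each alternative stayed within 1.5 times the value reported. With the replicate block the counts higher on the equal-median scale were 29, 28 and 13, and 28 per cell at 1 hour. By gene, sign changes are named only where the gene was called in the main run, in the alternative or in both. In high-Myc against low-Myc the sign turned in this way for GTF3C3 (-0.0126 centred on the tested genes, -0.0111 with quantile normalization) and CRCP (0.172 with probe sets averaged). In mid-Myc against low-Myc it turned for POLR3A (-0.0417 with probe sets averaged), POLR3GL (-0.0126 with quantile normalization) and MYC (-0.0551 as deposited, -0.0202 centred on the tested genes, -0.157 with cyclic loess, -0.148 with quantile normalization). Further members changed sign without a call in either run. In mid-Myc against low-Myc these were 11 as deposited, 11 centred on the tested genes, 9 with cyclic loess and 9 with quantile normalization. In high-Myc against low-Myc they were 3, 4, 2 and 3 in the same order. Background signal limits the folds of dim genes such as POLR3G.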

Other observations

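The promoter window of POLR3E, printed above, holds the 11 letters GGTTCGAATCC from 209 bases before the start. These letters match the B box, the internal promoter element of transfer RNA genes to which TFIIIC binds. They were looked for on both strands of every window after the POLR3E window had been read, so the count is a description with no test. They were present in 2 of the 44 windows of the members (4.55%), those of POLR3E and TAF1C, and in 16 of all 35116 windows (0.0456%). In TAF1C they lay on the strand opposite the gene, from 174 bases before the start. POLR3E was 1.53 log2 higher in high-Myc cells than in low-Myc cells on the equal-median scale, and TAF1C was 0.39 log2 higher. Whether these windows overlap transfer RNA genes was not tested, and the match says nothing of binding in these cells.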
